A study of Homo sapiens with 2 samples.

Results

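The genes described here are splicing regulators of the hnRNP, SR and PTB families. They are the 24 listed genes whose symbols start with HNRNP and the 12 whose symbols start with SRSF, leaving out pseudogene and antisense rows. To these were added 14 further genes by name: RAVER1, PTBP1, PTBP2, PTBP3, NONO, SFPQ, PSPC1, MATR3, RBFOX2, MBNL1, MBNL2, QKI, TRA2A and TRA2B. This gave 50 members of the 33592 genes listed in either library. The cells were H1 (also called WA01), a long-established line of human embryonic stem cells. Single cells were paired with barcoded beads in microwells, and the beads caught RNA with poly(A) tails and marked each molecule with a unique molecular identifier (UMI). One group was unedited (WT), and in the other ZNF263, which encodes a zinc finger protein that binds DNA, had been removed from both alleles by Cas9 (ZNF263 homozygous KO). Each genotype was measured in 1 library, so no difference below has a replicate check and no p-value is given. The labels do not say how many KO clones were used or which part of the gene was deleted.

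Splicing joins exons of a precursor RNA, and the proteins of these families decide which exons are joined. SR proteins bind exonic enhancers through an RNA recognition motif and recruit the spliceosome through a domain rich in arginine and serine. Many hnRNP proteins and the polypyrimidine tract-binding (PTB) proteins oppose exon inclusion, and RAVER1 is a partner of PTBP1 that binds it and helps it to repress exons. NONO, SFPQ and PSPC1 form the DBHS family, whose dimers work in splicing, transcription and paraspeckles, nuclear bodies built on the long RNA NEAT1. Many genes of these families control their own RNA through exons that lead to its decay, and pluripotent stem cells are known for high levels of several hnRNP and SR proteins.

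A barcode was kept as a cell when it reached 1000 UMIs and 500 genes with no more than 20% of its UMIs from mitochondrially encoded genes. These were 2935 WT barcodes with 4650391 UMIs and 2286 KO barcodes with 3567881 UMIs. A second sum was made over the barcodes of the same libraries with 250 or more but under 1000 UMIs, called shallow here. These held 23784553 UMIs in WT and 21086560 in KO, so the sum is deeper, but it is not a replicate. Barcodes under 1000 UMIs were not kept as cells, and how much of their RNA came from outside cells was not tested. Levels are counts per 1000000 UMIs (CPM) and differences are log2 ratios of CPM, KO over WT, with 95% intervals that cover counting error only. ZNF263 itself had 83 WT and 27 KO UMIs in the kept barcodes (log2 ratio -1.24, interval -1.92 to -0.60), and since the deleted part is unknown these tags do not check the label. The lists share 834126 barcode sequences, of which 20 were kept in both libraries. All 12 pluripotent stem cell markers were measured. Of 7 fibroblast markers 3 were measured, while DCN had 0 UMIs in both libraries. The neural, primitive streak, fibroblast and ribosomal values that differed between the libraries are given beside the results.

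Promoters are shown first because ZNF263 binds DNA, for 1 member that was higher and 2 that were lower in KO. The RefSeq table (GRCh38.p14) matched 41 of the 50 members, with RAVER1, SRSF2 and SFPQ among those not matched. Each window has 250 bases before and 50 bases after an annotated start. For some members, MBNL1, SRSF11 and PTBP3 among them, that start lies inside the gene. For NONO, HNRNPUL2 and MATR3 it is the outer start of the gene. NONO was higher in the KO library, and HNRNPUL2 and MATR3 were among the lower members. The letters GGAGGA, which occur in the published binding motif of ZNF263, were searched on both strands with overlapping matches counted, and are in capitals below, as GGAGGA or as TCCTCC where the match is on the other strand.
NONO, chrX:71283385-71283684, plus strand: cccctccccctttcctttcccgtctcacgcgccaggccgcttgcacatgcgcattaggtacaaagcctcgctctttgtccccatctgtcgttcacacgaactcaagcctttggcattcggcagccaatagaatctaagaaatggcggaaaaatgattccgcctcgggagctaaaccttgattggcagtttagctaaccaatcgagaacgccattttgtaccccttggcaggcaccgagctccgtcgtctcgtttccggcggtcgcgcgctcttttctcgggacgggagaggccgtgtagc
HNRNPUL2, chr11:62727408-62727707, minus strand: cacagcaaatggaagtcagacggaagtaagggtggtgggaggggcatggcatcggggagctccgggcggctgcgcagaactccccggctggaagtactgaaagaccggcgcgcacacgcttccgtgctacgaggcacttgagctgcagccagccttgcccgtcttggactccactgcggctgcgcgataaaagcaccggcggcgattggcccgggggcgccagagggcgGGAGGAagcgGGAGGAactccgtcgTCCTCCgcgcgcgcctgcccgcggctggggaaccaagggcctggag
MATR3, chr5:139273851-139274150, plus strand: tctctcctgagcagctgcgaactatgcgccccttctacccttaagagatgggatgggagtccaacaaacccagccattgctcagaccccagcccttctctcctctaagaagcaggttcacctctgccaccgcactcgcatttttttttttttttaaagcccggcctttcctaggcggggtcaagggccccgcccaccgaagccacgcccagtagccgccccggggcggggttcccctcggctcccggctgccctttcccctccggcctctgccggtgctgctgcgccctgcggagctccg
The HNRNPUL2 window held 3 matches, and the NONO and MATR3 windows held 0. At least 1 match was present in 22 of the 41 member promoters (53.7%) and in 21 of the 38 of measured members (55.3%). Matches were present in 40.3% of the 7926 promoters of all measured genes and in 36.1% of all 27305 promoters. Base composition was close, with a median GC content of 64.5% over the 38 promoters of measured members and 65.7% over those of all measured genes. TATAAA on the gene strand was present in 4 of 41 member promoters (9.76%) and in 4 of the 38 of measured members (10.5%). It was present in 3.15% of those of measured genes and in 7.71% of all. CCGGAA on either strand was present in 26.3% of the promoters of measured members, in 32.6% of those of measured genes and in 17.6% of all. A match is a string of letters and does not show binding, and its absence says only that these letters are not in this window.

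Of the 50 members, 45 were measured, meaning a mean of at least 5 CPM over both libraries, and the same 45 were measured in the shallow barcodes. Only 2 measured members were at least 1.5-fold higher in KO, RAVER1 and NONO, and 0 were at least 1.5-fold lower. Over all 10129 measured genes 3.94% were at least 1.5-fold higher and 13% at least 1.5-fold lower. The members' share of higher genes is near the first value and their share of lower genes below the second. Of the 45 members, 41 had a mean of at least 20 CPM. Shares among genes of like level were not computed, so whether level accounts for the low share of lower members was not tested. The median log2 ratio of the measured members was -0.14, the same as the median of all measured genes, and 34 of the 45 ratios were below 0. In the shallow sum 2 members were at least 1.5-fold higher, against 2.79% of 10148 measured genes, and 1, HNRNPUL2, was at least 1.5-fold lower, against 10.1%. There the median was -0.15 for the members and -0.15 for all measured genes. The middle of the families thus lay at the middle of all genes in both sums.

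The members summed gave 79659 WT and 58355 KO UMIs, a log2 ratio of -0.07 (interval -0.08 to -0.05), and without RAVER1 and NONO the ratio was -0.12. These small ratios depend on what the counts are divided by. With the libraries scaled so that the median gene has no change, which moves every ratio up by 0.14, 22 of the 45 members were above 0 and 23 below, and the summed members were at 0.07. Without mitochondrially encoded and ribosomal protein genes in the total, 15 were above 0 and 30 below, and the sum was at -0.0019. The ribosomal protein genes took 21.9% of kept WT UMIs and 24.3% of kept KO UMIs, and mitochondrially encoded genes took 4.58% and 5.45%. RAVER1, NONO, SRSF2, SRSF3 and SRSF5 were above 0, and MATR3, HNRNPUL2, HNRNPA0, HNRNPL, HNRNPU and SRSF1 below 0, under each of the 3 scalings with intervals that did not reach 0; no other measured member was. The sum also varied with the mitochondrial share of the barcode, from 0.03 (interval -0.002 to 0.06) under 2% and -0.01 (interval -0.05 to 0.02) from 2 to under 5%, to -0.08 from 5 to under 10% and -0.09 from 10 to 20%. Without RAVER1 and NONO it was at -0.03 (interval -0.06 to 0.004) under 2%.

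**Figure D1:**
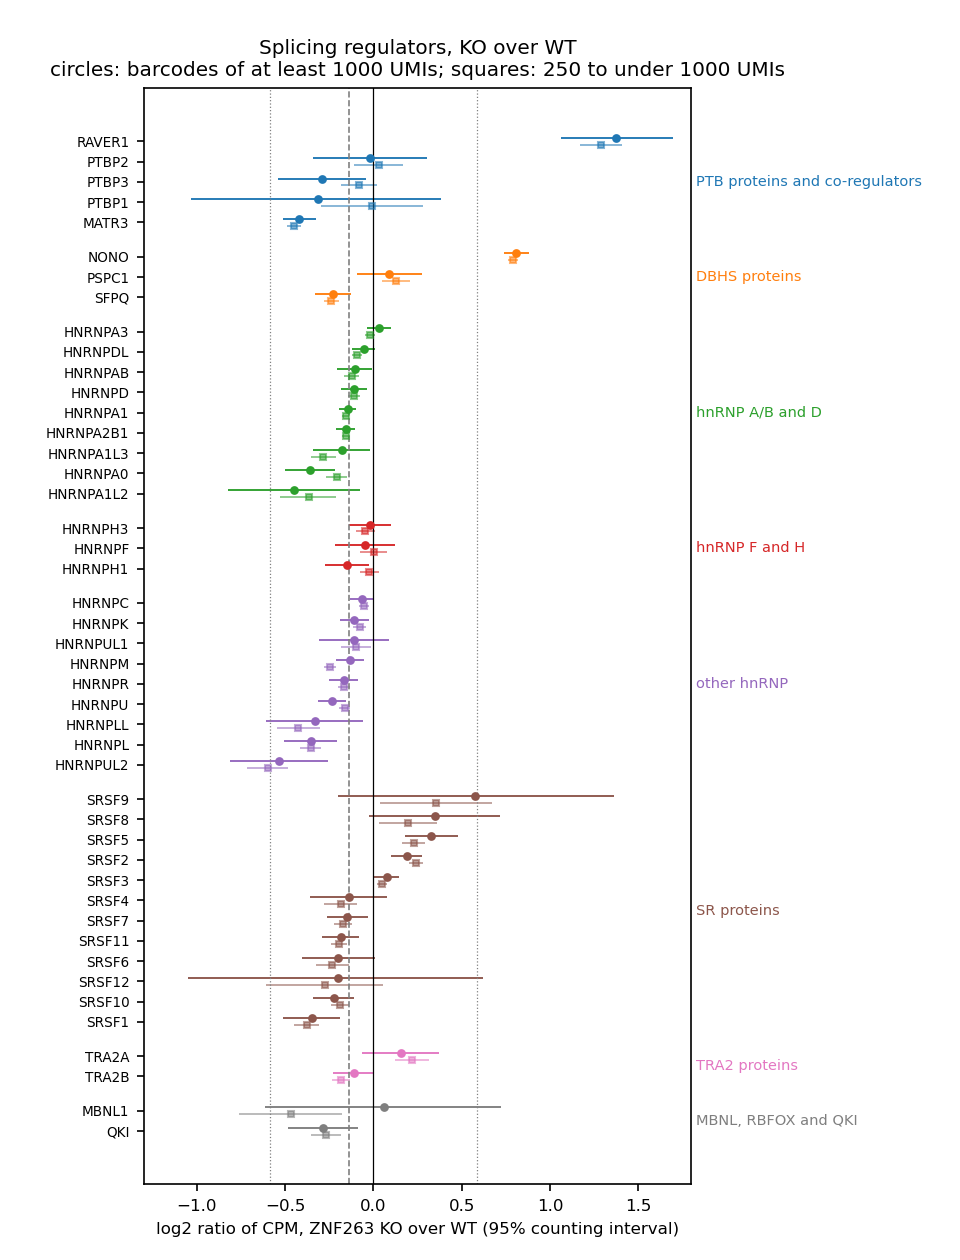
Log2 ratio of CPM, KO over WT, of the 45 measured members by family, with 95% counting intervals; circles are kept barcodes and squares are shallow barcodes of the same libraries. The dashed line is the median of all measured genes (-0.14) and the dotted lines mark 1.5-fold; RAVER1 and NONO lie beyond the upper dotted line in both sums.

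**Figure D2:**
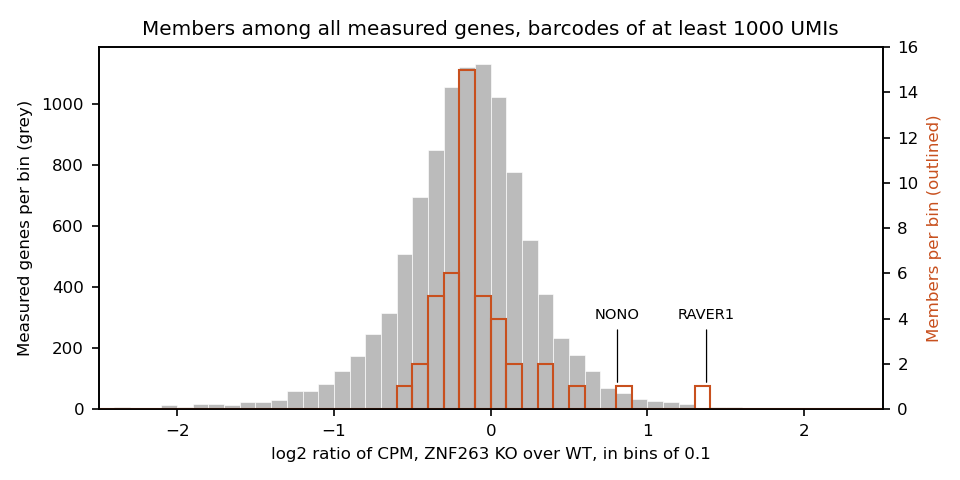
Number of measured genes (grey, left axis) and of members (outlined, right axis) per bin of 0.1 in the log2 ratio of CPM, KO over WT, in the kept barcodes; genes beyond 2.5 on either side are not drawn. The members follow the peak of all genes, and RAVER1 (1.38) and NONO (0.81) lie in its upper tail.

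Among the PTB proteins and their partners, RAVER1 was the member furthest above the other genes. RAVER1 (chr19:10316212-10333529) had 128 UMIs in the kept WT barcodes, 27.5 CPM (interval 23.0 to 32.7), and 255 in the KO barcodes, 71.5 CPM (interval 63.0 to 80.8). The intervals do not overlap. The level was 2.60-fold higher in KO (interval 2.09 to 3.24), a log2 ratio of 1.38 (interval 1.06 to 1.69), which ranks 24 from the highest among the 10129 measured genes. In shallow barcodes it had 854 WT and 1851 KO UMIs and was 2.44-fold higher (log2 ratio 1.29, interval 1.17 to 1.41), rank 13 of 10148. The families were chosen with this difference of RAVER1 known, so its rank is a description and not independent evidence.

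The 3 PTB paralogs did not share that difference. PTBP1, the form found in most cell types, was thinly counted, with 47 WT and 29 KO UMIs (10.1 and 8.13 CPM; log2 ratio -0.31, interval -1.03 to 0.38). With more counts in the shallow barcodes, 212 and 187, its ratio was -0.01 (interval -0.30 to 0.28). PTBP2, the neuronal form, had 189 WT and 143 KO UMIs and a ratio of -0.02 (interval -0.34 to 0.30), and PTBP3, described first in blood cells, had 351 and 220 and a ratio of -0.29 (interval -0.54 to -0.04), or -0.08 in the shallow barcodes. None of these intervals reaches the size seen for RAVER1. The UMI ratio of RAVER1 to PTBP1, which does not depend on the scaling, went from 2.72 in WT to 8.79 in KO, a log2 change of 1.69 (interval 0.91 to 2.48), and from 4.03 to 9.90 in the shallow barcodes (change 1.30, interval 0.98 to 1.61). The same ratio to PTBP2 changed by 1.40 (interval 0.94 to 1.85) and that to PTBP3 by 1.67 (interval 1.26 to 2.07); these pairs were chosen after the values were seen. The ratio of PTBP2 to PTBP1, which is high in neurons, changed by 0.29 (interval -0.48 to 1.09) in the kept barcodes and by 0.04 (interval -0.29 to 0.36) in the others. RAVER2, the paralog of RAVER1 and no member, had 114 WT and 64 KO UMIs and a ratio of -0.45 (interval -0.92 to 0.003); it too was looked up after its values were seen.

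The difference of RAVER1 was present in each band of barcode depth, including bands under 1000 UMIs, whose barcodes were not kept as cells. From 10 to under 100 UMIs a barcode up to 2000 UMIs or more, in 6 bands, its log2 ratio ran from 1.22 to 1.42, with KO levels of 69.1 to 94.2 CPM and WT levels of 27.1 to 38.0 CPM. The intervals of the WT and KO levels did not overlap in any of these bands. By mitochondrial share the ratio was 1.53 in kept barcodes under 2%, 1.69 from 2 to under 5% and 1.30 from 5 to under 10%. From 10 to 20% it was 0.28 (interval -1.05 to 1.73), where only 8 WT and 15 KO UMIs were counted, and the interval includes both 0 and the values of the other bands. No gene listed in the libraries overlaps the exons of RAVER1. Genes that are not listed do, AC011511.4 on the same strand and AC114271.1 on the other. Whether their reads were counted for RAVER1 was not tested. Of the 3 measured genes nearest on each side, S1PR2 had a ratio of 0.49 (interval -0.08 to 1.06), TYK2 -0.74 (interval -1.44 to -0.07), and MRPL4, FDX2, ICAM3 and CDC37 lay between -0.13 and -0.07. In shallow barcodes the 6 ran from -0.51 for TYK2 to 0.20 for ICAM3. None of these 6 neighbours was at least 1.5-fold higher in either sum.

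MATR3, a nuclear matrix protein that binds PTBP1 and represses exons, was lower in the KO library. MATR3 (chr5:139274101-139331677) had 2563 WT UMIs (551 CPM) and 1470 KO UMIs (412 CPM), a log2 ratio of -0.42 (interval -0.51 to -0.33). In shallow barcodes its levels were 542 and 397 CPM, a ratio of -0.45 (interval -0.49 to -0.41). The fold stays under 1.5, but the level of MATR3 and that of RAVER1 differ in opposite directions in both sums. The exons of MATR3 overlap those of SNHG4 on the same strand, which had 45 WT and 55 KO UMIs, and of SIL1 on the other strand; whether counting used the strand is not given in the sources used here.

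NONO, a DBHS protein, was the other member at least 1.5-fold higher, and it differed from its family. NONO (chrX:71283635-71301168) had 2774 WT UMIs, 597 CPM (interval 575 to 619), and 3728 KO UMIs, 1045 CPM (interval 1012 to 1079). This is 1.75-fold higher in KO, a log2 ratio of 0.81 (interval 0.74 to 0.88), rank 178 among the 10129 measured genes. In shallow barcodes NONO was at 705 CPM in WT and 1219 CPM in KO, a ratio of 0.79 (interval 0.76 to 0.82), rank 124. SFPQ, its most frequent partner in dimers, was on the other side of 0, at 412 CPM in WT and 352 CPM in KO (1916 and 1255 UMIs; ratio -0.23, interval -0.33 to -0.12). PSPC1, the paralog found mainly in paraspeckles, had 541 and 442 UMIs and a ratio of 0.09 (interval -0.09 to 0.28), and 0.13 (interval 0.05 to 0.21) in the shallow barcodes.

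The change in the balance of NONO and SFPQ is free of the scaling. The ratio of NONO to SFPQ UMIs went from 1.45 in WT to 2.97 in KO, a log2 change of 1.04 (interval 0.91 to 1.16). In shallow barcodes it went from 1.74 to 3.55 (change 1.03, interval 0.97 to 1.08). The ratio of PSPC1 to SFPQ changed by 0.32 (interval 0.11 to 0.53) and 0.37 (interval 0.27 to 0.46). Across the 6 bands of depth the ratio of NONO ran from 0.74 to 0.84 and that of SFPQ from -0.27 to -0.18. Across the 4 bands of mitochondrial share NONO lay between 0.74 and 0.99.

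A pseudogene of NONO on another chromosome was also counted. NONOP1 (chr16:69755416-69758070), had 224 WT and 461 KO UMIs in the kept barcodes, a log2 ratio of 1.42 (interval 1.19 to 1.66), and 1404 and 3362 UMIs in the others, a ratio of 1.43 (interval 1.34 to 1.52). Reads of a gene and its pseudogene may be exchanged, which was not tested here, and the identity of the sequences was not computed, so both counts are uncertain. Adding the pseudogene rows to NONO gave a ratio of 0.86 (interval 0.80 to 0.93). UMIs of NONOP1 per UMI of NONO went from 0.0807 in WT to 0.124 in KO, a log2 change of 0.61 (interval 0.37 to 0.86), so the rows differed by unequal amounts; this pair was chosen after the values were seen. Of the measured genes nearest to NONO, MED12 had a ratio of -1.01, ZMYM3 -0.54, NLGN3 and TAF1 -0.30, NHSL2 -0.04 and OGT 0.26 (interval 0.05 to 0.47). In shallow barcodes OGT was at 0.53, MED12 at -0.33, ZMYM3 at -0.22 and the other 3 between -0.52 and -0.36. OGT was the only one of the 6 with an interval above 0 in the kept barcodes, and none of the 6 was at least 1.5-fold higher in either sum.

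NEAT1 and MALAT1, RNAs found in nuclear bodies, were lower in the KO library. NEAT1, the scaffold of paraspeckles, had 63 WT and 20 KO UMIs in the kept barcodes (13.5 and 5.61 CPM; log2 ratio -1.27, interval -2.08 to -0.53), but its ratio was -0.52 in the shallow barcodes. MALAT1, an abundant RNA of nuclear speckles, had 255 and 117 UMIs and ratios of -0.74 (interval -1.07 to -0.42) and -0.70. NEAT1 is outside the rule for named genes and was named after its values were seen. The list of FET proteins and paraspeckle factors had 11 measured genes, with a median ratio of -0.20. Of these, 0 were at least 1.5-fold higher and 2, NEAT1 and MALAT1, at least 1.5-fold lower, against 3.94% and 13% of all measured genes. In shallow barcodes 1 of the 11 was at least 1.5-fold lower, against 10.1%.

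**Figure D3:**
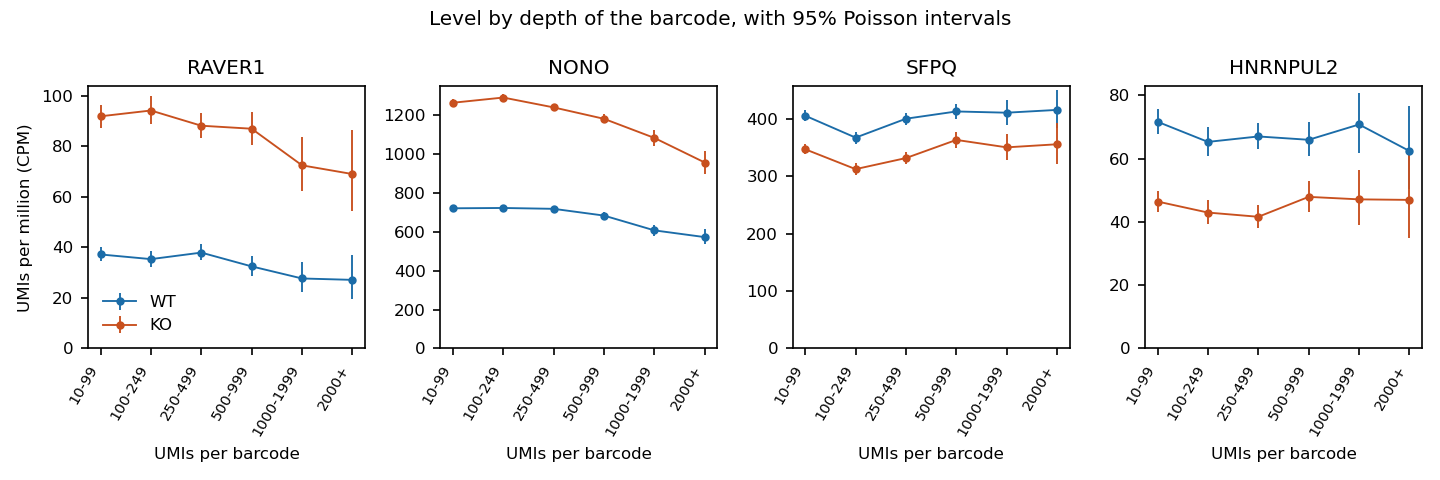
Level in CPM of RAVER1, NONO, SFPQ and HNRNPUL2 in 6 bands of UMIs per barcode, WT in blue and KO in orange, with 95% Poisson intervals; the vertical axes start at 0. The KO points of RAVER1 and NONO lie above the WT points in each band, and those of SFPQ and HNRNPUL2 lie below.

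The hnRNP A/B and D proteins, abundant repressors and RNA packaging proteins, lay near the median of all measured genes. Of 9 measured members 8 were below 0, as were 6609 of the 10129 measured genes, with a median of -0.15 beside -0.14 over all genes and a summed ratio of -0.12 (interval -0.14 to -0.09), and none reached 1.5-fold. HNRNPA1, which competes with SR proteins at splice sites, had 9234 WT and 6401 KO UMIs (1986 and 1794 CPM; ratio -0.15, interval -0.19 to -0.10), and HNRNPA2B1 had 7195 and 4948 UMIs (ratio -0.16, interval -0.21 to -0.11). The ratio of HNRNPA1 to HNRNPA2B1 changed by 0.01 (interval -0.06 to 0.08), so these paralogs differed by less than counting error. HNRNPA3 was at 0.03 (interval -0.03 to 0.10) and HNRNPA0 at -0.36 (interval -0.50 to -0.22), or -0.21 in the shallow barcodes. HNRNPAB, HNRNPD and HNRNPDL lay between -0.11 and -0.06. With the median gene set to no change, 4 of the 9 were above 0 and 5 below, and their median was -0.01.

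HNRNPA1 has near copies among the listed genes, and whether reads were exchanged between them was not tested. HNRNPA1L2 is 98.4% identical to an HNRNPA1 transcript over the aligned bases, and the pseudogenes HNRNPA1P10, HNRNPA1P35 and HNRNPA1P7 are 99.5%, 97.2% and 99.1% identical. HNRNPA1L2 had 169 WT and 95 KO UMIs (ratio -0.45, interval -0.83 to -0.08) and HNRNPA1L3 783 and 530 (ratio -0.18, interval -0.34 to -0.02). All HNRNPA1 pseudogene rows together had 263 and 207 UMIs, and adding them left HNRNPA1 at -0.14. Of the other pseudogene rows that were measured, HNRNPA3P6 had a ratio of 0.31 (interval -0.35 to 0.97), HNRNPCP2 -0.25 (interval -0.67 to 0.16) and PSPC1P1 0.22 (interval -0.62 to 1.05). These rows are reported as uncertain.

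Among the remaining hnRNP genes, HNRNPUL2 was the lowest. HNRNPUL2 (chr11:62712630-62727457), which takes part in the handling of DNA breaks, had 317 WT UMIs (68.2 CPM) and 168 KO UMIs (47.1 CPM), a log2 ratio of -0.53 (interval -0.81 to -0.26). In shallow barcodes it was at 66.6 and 44.0 CPM, 1.52-fold lower (ratio -0.60, interval -0.72 to -0.48). The KO level was below the WT level in each of the 6 depth bands, with ratios of -0.69 to -0.41, while under 2% mitochondrial UMIs the ratio was 0.10 (interval -0.45 to 0.63; 74 and 50 UMIs). A ratio this low is not rare: HNRNPUL2 ranks 1568 from the lowest of the 10129 measured genes. Its paralogs HNRNPU, a scaffold of chromatin, and HNRNPUL1 had ratios of -0.23 (interval -0.31 to -0.16) and -0.11 (interval -0.31 to 0.09). The exons of HNRNPUL2 overlap those of HNRNPUL2-BSCL2 on the same strand, which is not listed in the libraries.

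HNRNPL, which binds CA repeats, had 986 WT and 591 KO UMIs (ratio -0.36, interval -0.51 to -0.21), and its paralog HNRNPLL, a regulator of CD45 splicing in lymphocytes, had 297 and 181 (ratio -0.33, interval -0.61 to -0.06). Their UMI ratio changed by 0.02 (interval -0.29 to 0.34). HNRNPC, which binds uridine tracts, was at -0.07 (interval -0.13 to -0.004), HNRNPK, which binds cytidine-rich RNA, at -0.11, HNRNPM at -0.13 and HNRNPR at -0.17. All 9 measured members of this last group were below 0, and with the median gene set to no change 4 were above 0. HNRNPF, HNRNPH1 and HNRNPH3, which bind G tracts, had ratios of -0.05, -0.15 and -0.02, and only the interval of HNRNPH1 (-0.28 to -0.03) lay below 0; with the median gene set to no change 2 of these 3 were above 0. HNRNPH2, HNRNPCL1 and HNRNPCL3 were not measured: HNRNPH2 had 1 WT and 0 KO UMI in the kept barcodes, HNRNPCL1 had 1 and 2, and HNRNPCL3 had 0 in both, which allows up to 0.645 CPM in WT and 0.841 CPM in KO. The exons of HNRNPH2 overlap a read-through gene on the same strand.

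The SR proteins differed among themselves more than they did as a group. The 12 genes summed had 13425 WT and 10207 KO UMIs, a log2 ratio of -0.01 (interval -0.05 to 0.02), and 5 of the 12 were above 0 and 7 below under each of the 3 scalings. SRSF2, which binds exonic enhancers and stays in the nucleus, had 2239 WT UMIs (481 CPM) and 1958 KO UMIs (549 CPM), a ratio of 0.19 (interval 0.10 to 0.28), and 0.24 (interval 0.20 to 0.28) in the shallow barcodes. SRSF5 had 763 and 735 UMIs (164 and 206 CPM; ratio 0.33, interval 0.18 to 0.48), and 0.23 (interval 0.16 to 0.29) in the other sum. SRSF1, the first SR protein described, lay on the other side, with 864 and 520 UMIs (186 and 146 CPM; ratio -0.35, interval -0.51 to -0.19), and -0.38 (interval -0.45 to -0.31) in the other sum. None of these 3 reached 1.5-fold, and the interval of SRSF1 lies apart from those of SRSF2 and SRSF5.

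The ratio of SRSF2 to SRSF1 UMIs went from 2.59 in WT to 3.77 in KO, a log2 change of 0.54 (interval 0.36 to 0.72), and from 2.41 to 3.71 in the shallow barcodes (change 0.62, interval 0.54 to 0.70). This pair was chosen after the values were seen. SRSF3, a small SR protein that also acts in RNA export, was at 0.08 (interval 0.005 to 0.15), and SRSF7, its close paralog, at -0.15 (interval -0.27 to -0.03). Their ratio changed by -0.22 (interval -0.36 to -0.09), and by -0.22 (interval -0.28 to -0.16) in the other sum. SRSF10 at -0.22 and SRSF11 at -0.19 had intervals below 0, and SRSF4 at -0.14 and SRSF6 at -0.20 had intervals that include 0. SRSF8, derived from SRSF2, had 126 and 123 UMIs (ratio 0.35, interval -0.02 to 0.72). SRSF9 had only 28 and 32 (ratio 0.57, interval -0.20 to 1.36) and SRSF12 33 and 22 (ratio -0.20, interval -1.05 to 0.62), so differences of up to about these bounds were not detectable at this depth. The exons of SRSF2 and SRSF9 overlap those of MFSD11 and GATC on the other strand, and GATC had more UMIs (144 WT and 119 KO) than SRSF9.

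TRA2A and TRA2B, SR-like activators of exon inclusion, lay on either side of 0, with intervals that include 0 in the kept barcodes. TRA2A had 377 WT and 322 KO UMIs (ratio 0.15, interval -0.06 to 0.37) and TRA2B 1436 and 1019 (ratio -0.11, interval -0.23 to 0.004). In shallow barcodes the ratios were 0.22 (interval 0.12 to 0.31) and -0.19 (interval -0.24 to -0.14). The UMI ratio of TRA2A to TRA2B changed by 0.27 (interval 0.02 to 0.52) and by 0.40 (interval 0.30 to 0.51). TRA2B was above 0, at 0.03, with the median gene set to no change.

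The MBNL, RBFOX and QKI genes, which act in switches of splicing during differentiation, were thinly counted except for QKI. QKI had 541 WT and 341 KO UMIs (ratio -0.28, interval -0.48 to -0.09), and -0.27 in the shallow barcodes. MBNL1, a repressor of splicing patterns found in embryonic stem cells, had 45 and 36 UMIs (ratio 0.06, interval -0.61 to 0.73) in the kept barcodes and 254 and 163 (ratio -0.47, interval -0.76 to -0.18) in the others, so the direction differs between the sums. MBNL2 and RBFOX2 were below the limit of 5 CPM. With 5 and 2 UMIs in the kept barcodes MBNL2 gave no usable ratio, and with 80 and 26 in the others it was at 3.36 CPM in WT and 1.23 CPM in KO (ratio -1.45, interval -2.15 to -0.79). RBFOX2 had 65 and 31 UMIs there (ratio -0.89, interval -1.56 to -0.26) and 14 and 8 in the kept barcodes (ratio -0.43, interval -1.89 to 0.93).

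Markers of other cell types differed between the libraries. Of 9 neural markers 7 were measured and all 7 were at least 1.5-fold lower in KO, with a summed level of 765 CPM in WT and 345 CPM in KO. Of 5 primitive streak markers the 2 measured ones, EOMES and MIXL1, were at least 1.5-fold lower, with summed levels of 36.3 and 13.5 CPM over the 5. Of 12 pluripotent markers 3, POU5F1, DNMT3B and TDGF1, were at least 1.5-fold higher and 0 lower, against 3.94% and 13% of all measured genes. Of the 12, 6 were above 0 and 6 below, with a median log2 ratio of -0.01. In shallow barcodes 4 were at least 1.5-fold higher, against 2.79%, with 8 above 0, 4 below and a median of 0.12. Of 7 fibroblast markers 3 were measured, with summed levels of 308 CPM in WT and 420 CPM in KO over the 7. The log2 ratio of that sum, from 1433 WT and 1497 KO UMIs, was 0.45 (interval 0.34 to 0.55). Of the 3 measured, 2 had ratios above 0 and 1 below, and 1, COL1A1, was at least 1.5-fold higher (63 and 85 UMIs). DCN was at 0 in both libraries, LUM at 4 and 2 UMIs and POSTN at 4 and 3. Most UMIs of the fibroblast sum thus came from the other listed genes, COL1A2, COL3A1 and THY1. No endoderm marker and 1 of 6 trophoblast and amnion markers was measured. With barcodes of 4 or more CRABP1 UMIs left out, where CRABP1 is the neural marker with the most UMIs, RAVER1 was at 1.36, NONO at 0.81, MATR3 at -0.42, the summed members at -0.06 and their median at -0.13. No measured member moved by more than 0.06, the shift of SRSF12. The limit left 2849 of 2935 WT and 2272 of 2286 KO barcodes, so only a small part of either sum was removed. Cells with fewer CRABP1 UMIs or with other markers were not left out, and a change in the share of cells of a kind cannot be told apart from a change within cells in these sums.

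Within each library the members' share of RNA also moved with the mitochondrial share of the barcode. Kept barcodes of 10 to 20% mitochondrial UMIs were set against those under 2%, both per UMI of genes that are not mitochondrially encoded. The summed members were lower in the first by a log2 ratio of -0.26 (interval -0.32 to -0.20) in WT and -0.37 (interval -0.43 to -0.32) in KO. Over the 41 members whose mean reached 20 CPM the median was -0.23 in WT and -0.27 in KO, beside -0.04 and -0.07 over all genes at that level. Of the 41, 28 were lower and 4 higher in both libraries, counted by sign alone. The share of all genes with such signs was not computed. The 4 were SRSF2, SRSF5, SRSF7 and TRA2A, and of their intervals only that of SRSF7 in WT lay above 0. PTBP3 was at -1.86 (interval -3.51 to -0.60) in WT, from 134 and 5 UMIs, and at -1.91 (interval -3.40 to -0.71) in KO. HNRNPU was at -0.83 and -0.84, MATR3 at -0.78 and -0.76, HNRNPM at -0.72 and -0.62 and HNRNPC at -0.67 in both. The SR protein SRSF7 was at 0.44 (interval 0.07 to 0.80) and 0.16 (interval -0.21 to 0.51). Because the KO library had the higher mitochondrial share, these values stand beside the ratios of KO over WT; with at most 10% mitochondrial UMIs the median of the members was -0.12.

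**Figure D4:**
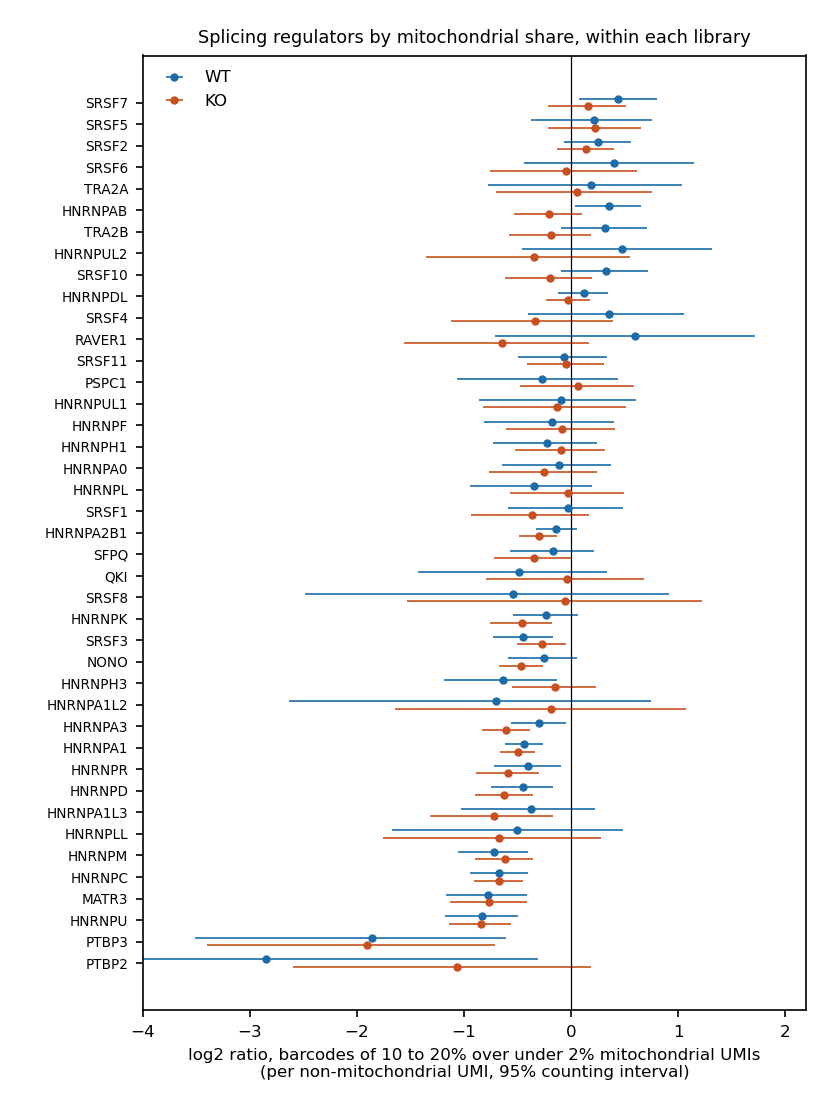
Log2 ratio between kept barcodes of 10 to 20% and of under 2% mitochondrial UMIs, per UMI of genes that are not mitochondrially encoded, for the 41 members whose mean reached 20 CPM, WT in blue and KO in orange, with 95% counting intervals; the axis ends at -4 and the lower bound of PTBP2 in WT (-8.18, from 1 UMI) lies beyond it. Most members lie left of 0 in both libraries, PTBP3, HNRNPU and MATR3 among the furthest. SRSF2, SRSF5, SRSF7 and TRA2A lie right of 0, with intervals that include 0 except for SRSF7 in WT.

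Depth moved the members less. From barcodes of 250 to under 500 UMIs to those of 2000 or more, the summed members differed by 0.12 (interval 0.11 to 0.14) in WT and 0.09 (interval 0.07 to 0.11) in KO. By sign alone, 30 of the 41 were higher in both libraries, and the share of all genes with such signs was not computed. The median of the 41 was 0.14 in WT and 0.11 in KO, beside 0.04 and 0.03 over all genes whose mean reached 20 CPM. NONO and RAVER1 went the other way, NONO by -0.32 in WT and -0.36 in KO and RAVER1 by -0.48 (interval -0.98 to -0.02) and -0.34 (interval -0.70 to -0.0017).

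The wider splicing machinery gives the setting for these values. Of 171 other splicing genes in 8 lists, 153 were measured. Of these, 3 were at least 1.5-fold higher in KO and 11 at least 1.5-fold lower, against 3.94% and 13% of all measured genes. Their median log2 ratio was -0.11, beside -0.14 over all measured genes. In the core of the U1 and U2 particles 1 of 24 was higher, SNRPE, a Sm ring protein, with 5982 WT and 6943 KO UMIs (ratio 0.60, interval 0.55 to 0.65), just past the limit, and 0.58 in the shallow barcodes. None of the 30 measured genes of the U4/U6.U5 particle and catalytic complex reached 1.5-fold. RNPS1, an exon junction protein, was lower (487 and 242 UMIs, ratio -0.63, interval -0.86 to -0.40), as were PPP1CA, a phosphatase that acts on SR proteins (ratio -0.71), and RSRP1, an SR-related protein (ratio -0.71), but in the shallow barcodes these were at -0.37, -0.13 and -0.24. The kinases that load SR proteins with phosphate had ratios of -0.04 for SRPK1, -0.33 for SRPK2 and -0.43 for CLK1. Among 26 RBM and related factors 1 was lower, RBM15 (58 and 23 UMIs, ratio -0.95, and -0.64 in shallow barcodes), and RBM5 and RBM23 were each at -0.58.

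The regulators limited to certain cell types held 7 of these 14 genes. Of their 22 measured genes 2 were higher and 5 lower, against 3.94% and 13% of all measured genes. ESRP1, the epithelial splicing regulator, had 165 WT and 232 KO UMIs (ratio 0.87, interval 0.58 to 1.17) and its paralog ESRP2 26 and 47 (ratio 1.24, interval 0.52 to 1.99); in shallow barcodes they were at 0.76 and 0.79. The neuronal regulators NOVA1 (166 and 79 UMIs, ratio -0.69), NOVA2 (-0.59) and CELF5 (-0.86) were lower, beside the lower neural markers given above. MBNL3 (57 and 15 UMIs, ratio -1.54, interval -2.47 to -0.70) and KHDRBS2 (31 and 12, ratio -0.99) were also lower. The shallow ratios were -0.83 for NOVA1, -0.62 for NOVA2, -0.40 for CELF5, -1.22 for MBNL3 and -0.49 for KHDRBS2. ESRP2, MBNL3, KHDRBS2, RBM15 and SRPK1 are outside the rule for named genes and were named after their values were seen.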

How the data were processed

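Gene counts were available for 1 WT and 1 ZNF263 KO library. The authors deposited them as raw counts of UMIs for each pair of gene and barcode, not normalized. Per the submitters' processing notes, the genome build was hg38 and the tools were Subread, featureCounts 2.0.1, STAR 2.7.10a and UMI-tools 1.1.2. The annotation, the use of strand and any barcode filter were not given in the sources used here. The WT barcodes had 60578040 UMIs in all and the KO barcodes 54559376, and the KO table held 15 entries more than its size line states, which were used. Doublets were not removed; an alternative left out barcodes over 4 times the median UMI count.

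Counts were summed over kept barcodes (1000 UMIs and 500 genes or more, at most 20% mitochondrially encoded) and over shallow barcodes (250 to under 1000 UMIs, no other limit), and scaled to CPM. Levels have exact Poisson intervals, ratios exact conditional binomial intervals and ratios of 2 members conditional odds ratio intervals, at 95% and for counting error only. UMIs of 1 library are not replicates, so no test was made. Where a fold was needed, a count of 0 was set to 3 UMIs. The functions were tested on simulated data. Alternatives were other scalings, barcode limits, thinning each barcode to 1000 UMIs, pseudogene rows added, a limit of 20 CPM and a 2-fold limit; leaving out barcodes kept in both libraries, and all pairs said to be so, were chosen after seeing the data.

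Named were all measured members, the members given by name, measured pseudogene rows, the 3 measured genes on each side of RAVER1, and up to 4 genes of each other list with the largest ratio at 10 CPM or more; neighbours of NONO were added after seeing its values. The members and lists were chosen with earlier results of these data known. Coordinates and promoters are from RefSeq (GRCh38.p14), exon overlaps and transcripts from GENCODE, aligned with blastn. Python 3.11.15, NumPy 2.4.6, SciPy 1.17.1, pandas 2.3.3 and matplotlib 3.10.9 were used.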

Additional observations from a re-analysis of the deposited data

How the results depend on the processing

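RAVER1 kept its direction in 10 alternatives, with log2 ratios of 1.20 (barcodes thinned to 1000 UMIs) to 1.51 (median gene set to no change). Among them, adding pseudogene rows could not change its ratio, because no pseudogene row of RAVER1 was listed. The sum and the median of the members are small beside the choice of scaling: with the median gene set to no change the summed members were at 0.07141 in place of -0.07, a reversed direction, and the median was -0.001475. Without mitochondrially encoded and ribosomal protein genes in the total the sum was -0.001886, with at least 2000 UMIs a barcode -0.1173 and with at most 10% mitochondrial UMIs -0.05106. At a 2-fold limit 1 member, RAVER1, was higher; NONO was not. The count of lower members, 0, became 2 with at least 2000 UMIs a barcode (HNRNPA1L2 with 72 and 23 UMIs and MBNL1 with 14 and 6) and 1 after thinning (HNRNPUL2). The count of higher members was 3 under either other scaling and with at most 10% mitochondrial UMIs, with SRSF9 added (28 and 32 UMIs, or 26 and 30 under the mitochondrial limit). Leaving out the 20 barcodes kept in both libraries gave 1.38 for RAVER1. No paired analysis was possible because each genotype has 1 library. With 1 library a group, variation between cultures, clones and captures cannot be told apart from genotype. Counts limit PTBP1, MBNL1, MBNL2, RBFOX2, SRSF9 and SRSF12 most.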
